A study of Mus musculus with 17 samples.

Results

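The genes described here are those of the 4 Hox clusters, followed across 17 arrays of sorted cells from the E11.5 mouse AGM (aorta, gonad and mesonephros), the embryonic region in which blood stem cells emerge from the wall of the aorta. A gene was a member when its symbol named a Hox cluster and a paralogue number and the array held a probe set with that symbol alone. This gave 37 of the 19937 genes measured, 10 in HoxA and 9 each in HoxB, HoxC and HoxD. Every member was measured by 1 probe set. By paralogue number, 7 members are anterior (groups 1 to 3), 14 central (4 to 8) and 16 posterior (9 to 13).

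All cells were sorted for the endothelial surface protein CD31 and against CD45 and Ter119, which mark mature blood and red cells. They came from pooled embryos and were separated by Kit, the stem cell factor receptor found on budding blood cell clusters. Kit− cells (3 arrays) and Kit+ cells (3 arrays) were taken fresh. The other arrays came from CD31+ cells kept for 2 h on OP9 cells, a mouse bone marrow stromal line that carried either the Notch ligand Jag1 or the Notch ligand Dll4, in medium with blood cytokines, and then sorted again by Kit. They are Kit−J (2 arrays) and Kit+J (3) from OP9-Jag1, and Kit−D (3) and Kit+D (3) from OP9-Dll4. No cultured group without an added ligand is among the arrays, so the 2 ligands are compared with each other or with fresh cells. The fresh arrays belong to an earlier series. When a cultured group is set beside a fresh one, the effect of culture and that of the array set cannot be told apart. Each array began from a few nanograms of amplified RNA. According to the study the arrays of a group came from separate sorts.

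Hox genes encode homeodomain transcription factors that give cells their position along the body axis. They lie in 4 clusters in which the order of the genes matches the order of their expression from head to tail, so anterior genes are switched on first and farthest forward. They bind DNA together with TALE cofactors of the Pbx and Meis families, their activity is kept on by trithorax and MLL proteins and off by Polycomb proteins, and retinoic acid induces many of them directly. Several act in blood: Hoxb4 expands blood stem cells when supplied in excess, Hoxb5 marks long-lived stem cells in adult mouse marrow, Hoxa9 and Hoxa10 act in stem and progenitor cells, and Hoxa3 holds early endothelium back from becoming blood.

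Hoxa5, Hoxb4, Hoxd8 and Hoxd10 are the 4 members called lower in fresh Kit+ than in fresh Kit− cells, by the test given below. They carry most of the comparisons and are shown by the 250 bases before a start in RefSeq (build GRCm38.p6). For Hoxa5, Hoxb4 and Hoxd8 the window adjoins the annotated gene. The Hoxd10 window lies inside the annotated span of Hoxd10 (chr2:74684273-74695106). Capitals mark AGGTCA or its reverse complement TGACCT, a half-site of the retinoic acid receptor.

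Hoxa5, chr6:52204588-52204837 (reverse strand): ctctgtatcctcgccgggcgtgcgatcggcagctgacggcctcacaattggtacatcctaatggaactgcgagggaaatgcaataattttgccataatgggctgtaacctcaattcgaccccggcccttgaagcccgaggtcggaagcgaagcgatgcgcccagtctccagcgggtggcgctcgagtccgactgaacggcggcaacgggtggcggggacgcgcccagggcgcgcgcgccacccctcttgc
Hoxb4, chr11:96318017-96318266 (forward strand): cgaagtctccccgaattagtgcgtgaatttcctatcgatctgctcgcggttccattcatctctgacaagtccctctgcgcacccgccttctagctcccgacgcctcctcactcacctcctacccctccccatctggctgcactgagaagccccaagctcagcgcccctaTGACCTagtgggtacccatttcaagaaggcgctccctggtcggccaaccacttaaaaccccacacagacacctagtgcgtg
Hoxd8, chr2:74704365-74704614 (forward strand): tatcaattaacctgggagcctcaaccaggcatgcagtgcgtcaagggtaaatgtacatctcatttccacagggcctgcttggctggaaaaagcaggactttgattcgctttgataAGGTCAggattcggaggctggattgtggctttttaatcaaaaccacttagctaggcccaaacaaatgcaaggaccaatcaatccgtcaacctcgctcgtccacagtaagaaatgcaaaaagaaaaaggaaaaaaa
Hoxd10, chr2:74691641-74691890 (forward strand): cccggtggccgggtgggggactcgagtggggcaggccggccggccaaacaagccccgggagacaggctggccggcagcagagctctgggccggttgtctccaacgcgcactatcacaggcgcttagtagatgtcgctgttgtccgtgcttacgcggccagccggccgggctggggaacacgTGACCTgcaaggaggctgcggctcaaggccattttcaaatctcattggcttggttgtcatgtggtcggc

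Hoxb4, Hoxd8 and Hoxd10 each hold 1 half-site in this window and Hoxa5 holds none. A promoter window was given for 21 of the 37 members, and 6 of those 21 hold AGGTCA on either strand, against 14% of 32851 mouse promoters of the same length. The core recognised by the Notch partner RBPJ, TGGGAA on either strand, is held by 4 of the 21 members (Hoxa6, Hoxa9, Hoxa13 and Hoxd3), against 21.6% of all promoters. The Meis motif TGACAG is in 2 of the 21 (Hoxa2 and Hoxa3), against 15.9%, and the caudal motif TTTATG in 4 of the 21 (Hoxa7, Hoxd3, Hoxd4 and Hoxd11), against 10.8%. A member counted when any window given for it held the letters, whereas the share of all promoters counts single windows. These letters describe the sequence and are not binding sites, and the arrays did not measure binding.

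How many members stood above background differed between the groups. The values are log2 signals, in which 1 unit is a doubling, and a floor was set in each group at the 95th percentile of 1224 olfactory, vomeronasal and taste receptor genes, which these cells have little reason to transcribe. The floor lay between 4.75 (Kit−D) and 5.23 (Kit−J). Above it were 27 of the 37 members in Kit−D, 24 in Kit−, 14 each in Kit+ and Kit+D, 13 in Kit+J and 11 in Kit−J. As shares these are 73.0%, 64.9%, 37.8%, 37.8%, 35.1% and 29.7%, whereas the share of all genes above the floor ran only from 59.4% (Kit−J) to 67.4% (Kit−D). No test was run on these shares. The floors were unequal, so the order of groups with close counts depends on them, and no common floor was tried. Hoxb5 had a mean of 5.220 in Kit+ and was above the floor there (4.99). In Kit−J its mean was 5.227 and it was counted as under the floor (5.228). Bulk arrays cannot tell fewer cells of a type from less RNA per cell.

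Of the members, 11 were above the floor in all 6 groups: Hoxa4, Hoxa6, Hoxa7, Hoxa9, Hoxb1, Hoxb3, Hoxb6, Hoxb7, Hoxd9, Hoxd10 and Hoxd11. Another 9 were above it in none: Hoxa13, Hoxc4, Hoxc11, Hoxc12, Hoxc13, Hoxd1, Hoxd3, Hoxd12 and Hoxd13. HoxC thus gave 4 genes above the floor in no group and no gene above it in all. The remaining 17 members crossed the floor between groups, and for 8 of them (Hoxa2, Hoxa3, Hoxa10, Hoxb4, Hoxc5, Hoxc8, Hoxc10 and Hoxd4) the groups above it were Kit− and Kit−D alone. Hoxc5 was above the Kit−D floor (4.75) through replicate 2 alone, with 4.45, 6.32 and 4.39 on the arrays. The same held for Hoxc6 (4.25, 6.02 and 4.47), which was above the floor in Kit−D only.

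**Figure D1:**
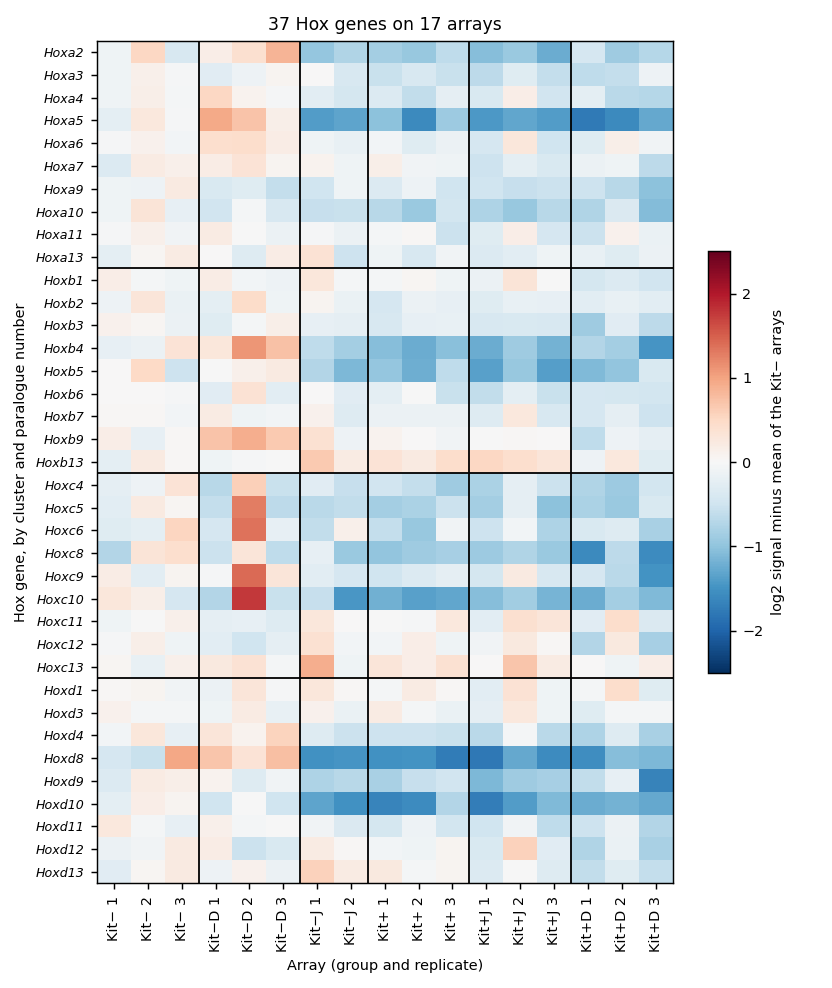
Heat map of the log2 signal of the 37 members (rows, by cluster and paralogue number) on the 17 arrays (columns), each minus the gene's mean over the 3 Kit− arrays. Red is higher and blue lower, and black lines part clusters and groups. Hoxa5, Hoxb4, Hoxd8 and Hoxd10 are blue on every Kit−J, Kit+, Kit+J and Kit+D array, and HoxC genes are red on 1 Kit−D array.

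The surface protein used for the sort was read on the arrays through its own gene. The log2 signal of Kit was 9.44 to 9.55 on the Kit+ arrays, 9.02 to 9.93 on the Kit+J arrays and 8.51 to 8.99 on the Kit+D arrays, whereas it was 8.13 to 8.29 for Kit−, 7.05 to 8.02 for Kit−D and 9.08 and 8.50 for Kit−J. Kit−J replicate 1 thus lay above all 3 Kit+D arrays and above Kit+J replicate 2 (9.02), so its Kit signal does not set it apart from the Kit+ gate. On 4 arrays (both of Kit−J, the third of Kit−D and the third of Kit+D) a line of the labels names the other Kit gate. Titles and sources were used, so every Kit−J result below rests on the titles. The same holds for the gate of replicate 3 in every Kit−D and Kit+D result. All 12 endothelial markers were above the floor in Kit− and Kit−D. Relative to Kit−, their mean was 0.0874 to 0.47 higher on the Kit−D arrays, and it was −2.26 and −1.76 on the Kit−J arrays, −2.82 to −2.48 on Kit+, −3.01 to −2.71 on Kit+J and −2.81 to −1.72 on Kit+D. The mean of 13 stromal and mesenchymal markers ran from −0.33 to 0.73 on Kit−D, −0.89 and −0.63 on Kit−J, from −1.21 to −1.07 on Kit+, from −1.32 to −0.50 on Kit+J and from −1.25 to 0.15 on Kit+D. The mean of 9 primordial germ cell markers ran from −2.53 to −0.79 on Kit−D, 0.83 and 0.72 on Kit−J, from 0.997 to 1.30 on Kit+, from 1.08 to 1.496 on Kit+J and from −1.87 to 1.90 on Kit+D. Germ cells carry Kit and pass through this region, stromal cells surround the aorta, and OP9 is itself a mouse stromal line. The part of these cells in the results below was not tested.

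**Figure D2:**
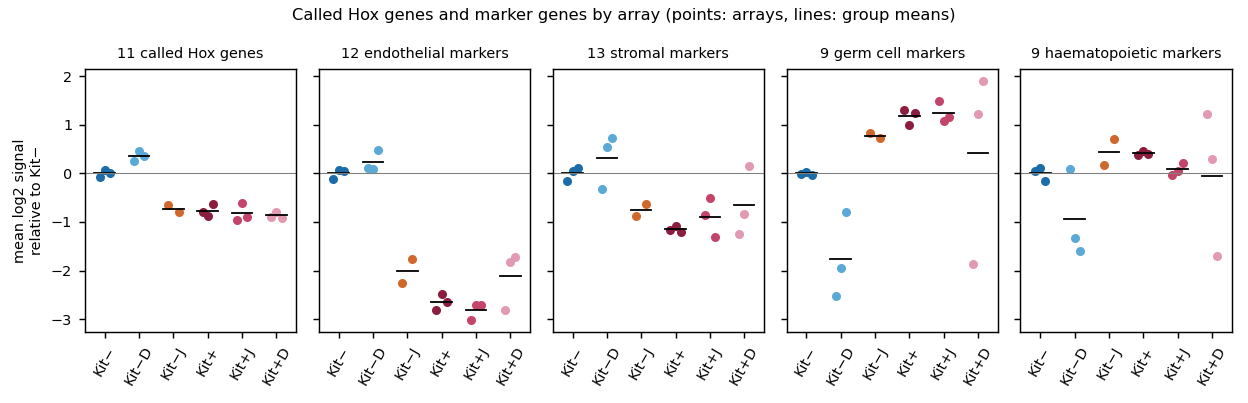
Mean log2 signal of the 11 Hox genes called in at least 1 comparison, and of 4 marker lists, on each array minus that of fresh Kit− cells (mean of 3 arrays). Points are arrays and black lines group means. The Hox genes were chosen on these arrays, so their panel is a description. They sit between −0.95 and −0.61 on every Kit−J, Kit+, Kit+J and Kit+D array, while the germ cell markers of the Kit+D arrays run from −1.87 to 1.90.

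The first question was whether fresh Kit+ and Kit− cells differ in their Hox genes, which is asked within 1 array set. Hoxa5, Hoxb4, Hoxd8 and Hoxd10 were lower in Kit+ cells and no member was higher. That is 4 of 37 members (10.8%), against 3.23% of all genes called in either direction and 2.67% called lower, the call being a limma adjusted p below 0.05 over 19937 genes. Another 9 members had an unadjusted p under 0.05 only, which made 13 of 37, against 2690 of 19937 genes. The median log2 difference over the members was −0.32 and 32 of 37 lay below 0, whereas the median over all genes was 0.06.

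Hoxa5, a central gene that patterns the neck and chest and the lung, had log2 signals of 6.07, 6.59 and 6.30 on the Kit− arrays and of 5.30, 4.74 and 5.40 on the Kit+ arrays. The groups did not overlap. The difference was −1.17 ± 0.22 (log2, SE, n = 3 and 3; limma adjusted p = 0.00622). Hoxd8, a central gene of HoxD, had signals of 5.92, 5.78 and 7.29 in Kit− and 4.81, 4.83 and 4.59 in Kit+. All Kit+ values lay under their floor, and Kit− replicate 3 stood above its group. The difference was −1.59 ± 0.30 (limma adjusted p = 0.00674), and −1.11 without Kit− replicate 3 (limma adjusted p = 0.00761). Hoxd8 lost its call when only the 6 fresh arrays were fitted (limma adjusted p = 0.0501).

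Hoxd10, a posterior gene that acts in the limb and the lumbar spinal cord, had signals of 6.74, 7.16 and 7.06 in Kit− cells and of 5.33, 5.42 and 6.25 in Kit+ cells. Even the highest Kit+ array was below the lowest Kit− array. The difference was −1.32 ± 0.23 (limma adjusted p = 0.0037). Hoxb4 had signals of 5.32, 5.37 and 5.87 in Kit− and of 4.46, 4.28 and 4.47 in Kit+. Its difference was −1.11 ± 0.23 (limma adjusted p = 0.0119), so the member best known for expanding blood stem cells had the lower signal in the Kit+ gate, at values under the floor. Its call was lost without Kit− replicate 3 or without Kit+ replicate 2 (limma adjusted p up to 0.0697).

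Where the dimmer group lies at or under its floor, its true level is not known. The fold change is then only a lower bound for the observed means. This held for 17 of the 26 called differences reported here. With the dimmer group raised to its floor, Hoxd8 was at least 2.52-fold and Hoxb4 at least 1.44-fold lower in Kit+ than in Kit− cells. Here and below, such a bound uses the mean of the brighter group and leaves out the spread between arrays. A fit without 1 array can therefore give less, as for Hoxd8 without Kit− replicate 3 (−1.11, log2). Hoxa5 and Hoxd10 stayed above the floor in Kit+ and were 2.26-fold and 2.496-fold lower.

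The second question was whether Hox genes of Kit− cells differed after 2 h on the 2 stromas. In Kit−J versus Kit−D, 8 of 37 members (21.6%) were lower and 0 higher, against 9.37% of all genes called and 6.07% called lower. They were Hoxa2, Hoxa5, Hoxb4, Hoxb5, Hoxb9, Hoxd4, Hoxd8 and Hoxd10, and 5 of the 8 are among the 14 central genes. The median over the members was −0.22, whereas that over all genes was 0.11. No member of HoxC was called.

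Hoxd8 had signals of 4.81 and 4.84 on the Kit−J arrays and of 7.02, 6.66 and 7.08 on the Kit−D arrays. The 2 groups were far apart, and Kit−J lay under its floor. The difference was −2.10 ± 0.34 (SE, n = 2 and 3; limma adjusted p = 0.00156), which is at least 3.24-fold lower. Hoxa5 had 4.92 and 5.00 in Kit−J and 7.27, 7.02 and 6.46 in Kit−D. The difference was −1.96 ± 0.25 (limma adjusted p = 0.000238), which is at least 3.23-fold lower. Hoxb4 had 4.89 and 4.67 in Kit−J and 5.81, 6.61 and 6.25 in Kit−D, a difference of −1.45 ± 0.26 (limma adjusted p = 0.003). These calls, of Hoxd8, Hoxa5 and Hoxb4 alone among the 8, remained under every alternative and without any 1 array.

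Hoxa2, which patterns the hindbrain and the second branchial arch, had signals of 4.05 and 4.28 in Kit−J and 5.18, 5.42 and 5.87 in Kit−D (difference −1.33 ± 0.26, limma adjusted p = 0.00547). It lost its call only without Kit−J replicate 1 (adjusted p = 0.0782). Hoxb5 had 5.43 and 5.03 in Kit−J and 6.15, 6.29 and 6.39 in Kit−D (difference −1.05 ± 0.28, limma adjusted p = 0.0337). Hoxd10 had 5.67 and 5.47 against 6.49, 6.98 and 6.49 (difference −1.09 ± 0.26, limma adjusted p = 0.0189). Each of these genes kept its groups apart.

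Hoxb9, a gene of the thoracic axis, had 5.28 and 4.79 in Kit−J and 5.62, 5.82 and 5.57 in Kit−D. Hoxd4, which is patterned by retinoic acid in the hindbrain, had 4.73 and 4.51 against 5.35, 5.14 and 5.61. The differences were −0.64 ± 0.18 and −0.75 ± 0.22 (limma adjusted p = 0.0424 and 0.0497). Hoxb5 and Hoxd4 were called in none of the fits that left out 1 array, and Hoxb9 in 1 of 5. The count of 8 fell to 4 or 5 without any 1 array of either group: 4 without Kit−J replicate 1, Kit−J replicate 2 or Kit−D replicate 2, and 5 without Kit−D replicate 1 or 3.

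Set against fresh Kit− cells, Kit−J had 3 members called, all lower (8.11% of 37, against 2.14% of all genes called and 1.89% called lower), namely Hoxa5, Hoxd8 and Hoxd10. Their differences were −1.36 ± 0.25, −1.50 ± 0.34 and −1.42 ± 0.26 (limma adjusted p = 0.00858, 0.0314 and 0.00907). Without Kit−J replicate 1 the differences were −1.32, −1.48 and −1.52 but 0 members were called (limma adjusted p = 0.102, 0.212 and 0.0673), and without replicate 2 Hoxd8 lost its call (−1.52, limma adjusted p = 0.0695). With housekeeping scaling or with array weights 0 were called. Kit−D cells had 0 members called versus Kit− (0.171% of all genes). An unadjusted p under 0.05 was met by 4 of 37 members and by 2238 of 19937 genes, which are similar shares. Of the 4 members Hoxb9, Hoxb4 and Hoxa5 lay higher in Kit−D, by 0.76 ± 0.16, 0.71 ± 0.23 and 0.60 ± 0.22, and Hoxa9 lay lower by −0.42 ± 0.17 (limma adjusted p = 0.067, 0.25, 0.316 and 0.353). With array weights Hoxb4 and Hoxb9 were called, higher in Kit−D. Both comparisons share the Kit− arrays and set cultured arrays against the earlier series.

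**Figure D3:**
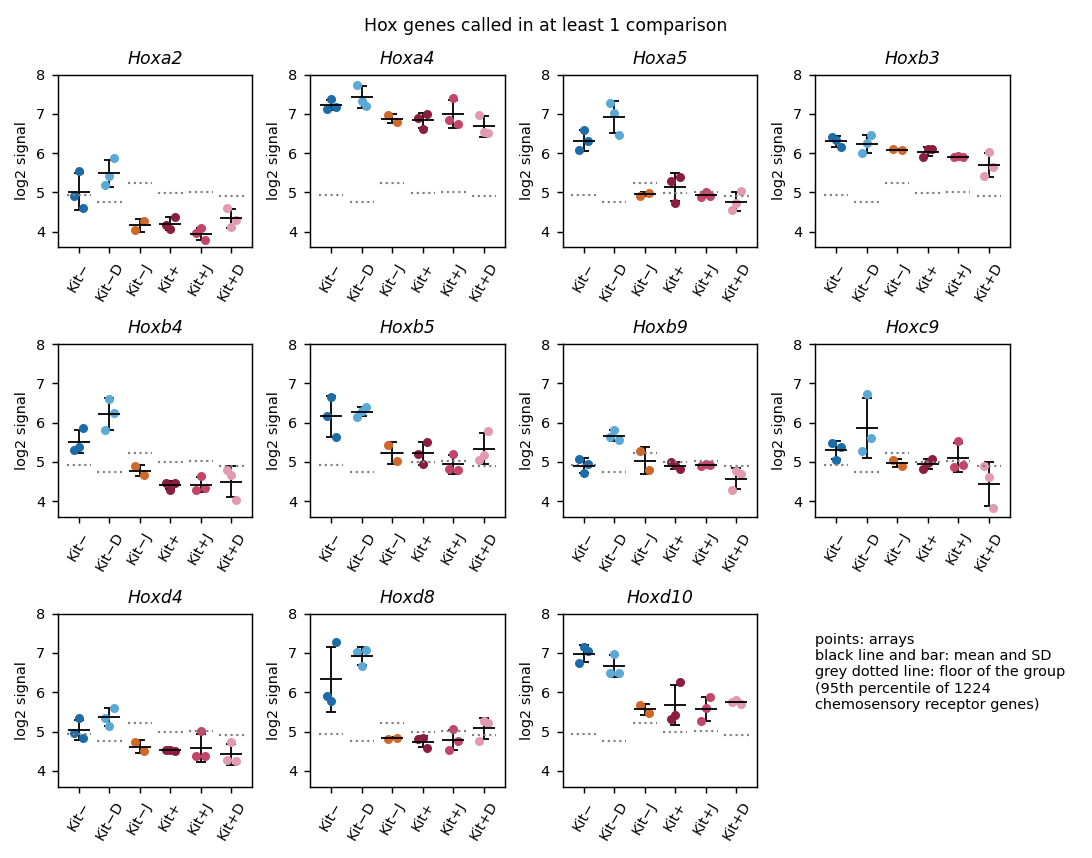
Log2 signal of the 11 members called in at least 1 comparison, by group. Points are arrays, black lines and bars are mean and SD, and the grey dotted line is the floor of the group. For Hoxa5, Hoxb4 and Hoxd8 the Kit− and Kit−D arrays lie above the floor and apart from the arrays of the other 4 groups.

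The third question was whether Kit+ and Kit− cells from the same stroma differed. On OP9-Dll4 the gap was wide: 11 of 37 members (29.7%) were lower in Kit+D than in Kit−D and 0 were higher, against 13.1% of all genes called and 6.62% called lower. The median over the members was −0.49 and 36 of 37 lay below 0, whereas the median over all genes was 0.05 with 44.1% below 0. The called members were Hoxa2, Hoxa4, Hoxa5, Hoxb3, Hoxb4, Hoxb5, Hoxb9, Hoxc9, Hoxd4, Hoxd8 and Hoxd10. All 14 central genes lay below 0 (median −0.74) and 6 of them were called, whereas 3 of 16 posterior genes were called (median −0.38). Of the genes above the floor in no group, Hoxc4 is central and Hoxa13, Hoxc11, Hoxc12, Hoxc13, Hoxd12 and Hoxd13 are posterior. Signals at the floor limit what can be called, so the classes were not compared on equal terms. This comparison shares the Kit−D arrays with that of the stromas above.

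Hoxa5 had signals of 7.27, 7.02 and 6.46 in Kit−D and of 4.54, 4.72 and 5.04 in Kit+D. The difference was −2.15 ± 0.22 (limma adjusted p = 3.64e-05), which is at least 4.04-fold lower and the largest among the members in this comparison. Hoxd8 had 4.77, 5.27 and 5.21 in Kit+D, with Kit−D as above, and was 3.58-fold lower (−1.84 ± 0.30, limma adjusted p = 0.00124). Hoxb4 had 4.78, 4.67 and 4.04 in Kit+D and was at least 2.501-fold lower (−1.73 ± 0.23, limma adjusted p = 0.000249). None of the 3 genes overlapped between the groups.

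Hoxb9 had 4.28, 4.78 and 4.68 in Kit+D against 5.62, 5.82 and 5.57 in Kit−D (−1.09 ± 0.16, limma adjusted p = 0.000672). Hoxa2 had 4.61, 4.13 and 4.30 against 5.18, 5.42 and 5.87 (−1.14 ± 0.23, limma adjusted p = 0.00471). Hoxa4, a central gene of HoxA that was well above the floor everywhere, had 6.98, 6.54 and 6.51 in Kit+D against 7.74, 7.32 and 7.20 in Kit−D (−0.74 ± 0.20, limma adjusted p = 0.0246). Its call was lost in 4 of 6 fits without 1 array and in 3 of 10 alternatives (limma adjusted p up to 0.107).

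Hoxb3, which acts in the hindbrain and in growing vessels, had 5.41, 6.02 and 5.64 in Kit+D against 5.996, 6.25 and 6.45 in Kit−D. It was called (−0.54 ± 0.16, limma adjusted p = 0.0377) although the arrays of the groups overlapped, and 7 of 10 alternatives lost the call. Hoxc9, a thoracic gene, had 4.90, 4.63 and 3.82 in Kit+D against 5.29, 6.73 and 5.60 in Kit−D (−1.42 ± 0.33, limma adjusted p = 0.0113). Hoxb5, Hoxd4 and Hoxd10 were lower in Kit+D by −0.94 ± 0.25, −0.95 ± 0.20 and −0.90 ± 0.23 (limma adjusted p = 0.025, 0.00657 and 0.0198). Hoxb5 lost its call in 4 of 6 fits without 1 array and in 4 of 10 alternatives, and Hoxd10 lost it in 1 of 6 and 2 of 10.

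Arrays of the same number in the 2 OP9-Dll4 groups deviated together and were taken as pairs. With the replicate block in a fit of the 6 OP9-Dll4 arrays alone, 9 members were called, all lower. Hoxb3, Hoxc9 and Hoxd4 lost their calls there and Hoxc8 gained one. Markers of other cells varied most among these arrays: with 3 arrays left out (Kit−D replicate 3; Kit+D replicates 1 and 3), a choice that rests on earlier results, Hoxa2, Hoxa5, Hoxb4 and Hoxb9 were called, 4 in all. The Kit+D group then holds 1 array, which is assumed to vary like the other groups. Without Kit−D replicate 2 the count was 7.

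On OP9-Jag1, 0 of 37 members were called in Kit+J versus Kit−J, where 0.0903% of all genes were called. An unadjusted p under 0.05 was met by 1 member, against 2133 of 19937 genes. The median over the members was −0.11, and 33 of 37 lay below 0, whereas the median over all genes was −0.03. The 95% confidence intervals of the members reached from −1.16 to 1.12. The member with the unadjusted p was Hoxd13 (−0.63 ± 0.19, limma adjusted p = 0.239). Hoxa5 had 4.92 and 5.00 in Kit−J and 4.89, 5.02 and 4.92 in Kit+J, all at or under the floor. Where both groups are at the floor no difference could be seen.

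Within Kit+ cells, culture and ligand gave no called member. Above the floor were 14 of 37 members in Kit+, 13 in Kit+J and 14 in Kit+D, and differences among members at the floor could hardly be seen. Over the members, 95% confidence intervals reached from −0.93 to 1.26 in Kit+J versus Kit+ and from −1.21 to 1.22 in Kit+D versus Kit+. In Kit+J versus Kit+D they reached from −0.97 to 1.37. In Kit+J versus Kit+ (0.0201% of all genes called) 0 members were called by limma. None of the 37 had an unadjusted p under 0.05, against 1330 of 19937 genes. In Kit+D versus Kit+ (1.42%) 0 were called and 5 had an unadjusted p under 0.05, a smaller share than the 3386 of 19937 genes. In Kit+J versus Kit+D (2.25%) 0 were called and 4 had an unadjusted p under 0.05, a smaller share than the 3814 of 19937 genes. Without Kit+D replicate 2 Hoxc12 was called, higher in Kit+J. The first and second share the Kit+ arrays, and cultured Kit+ cells are again set against the earlier series.

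**Figure D4:**
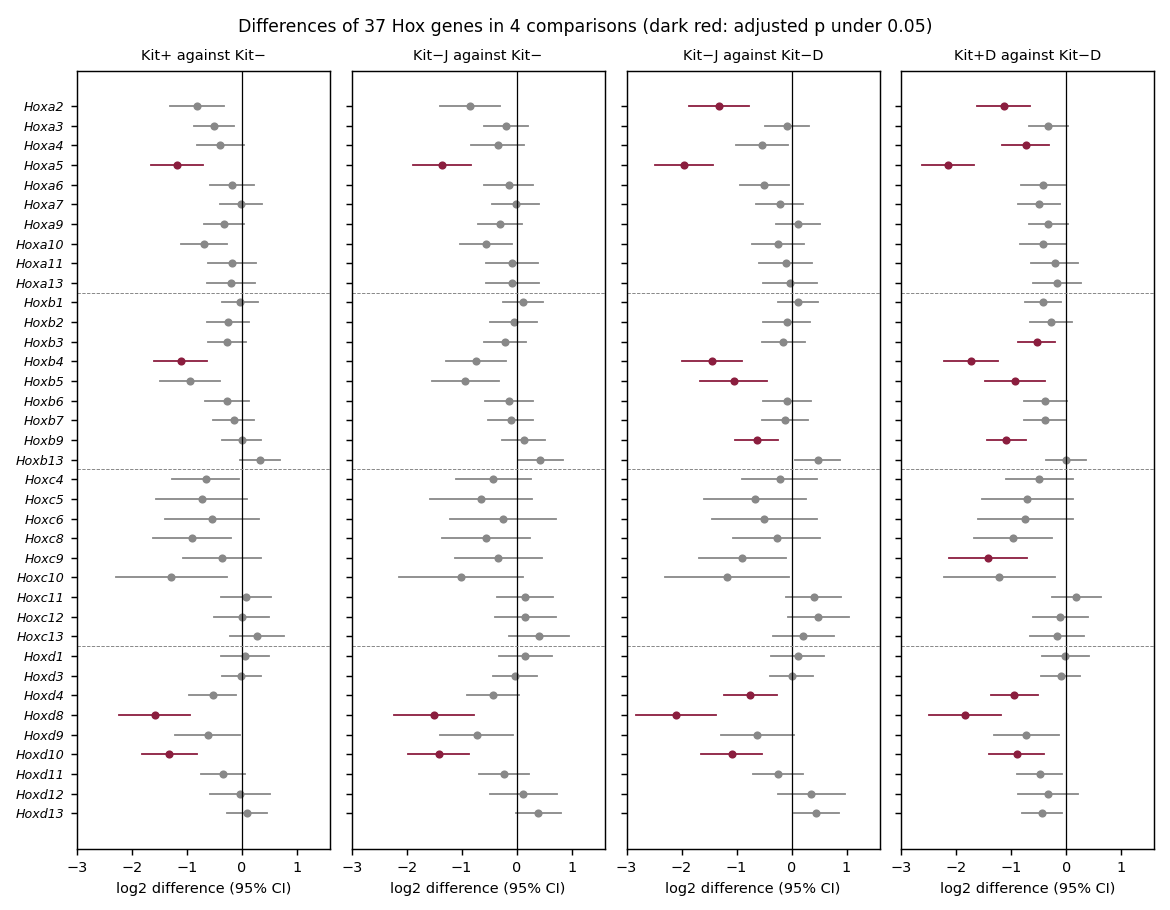
Log2 difference of the 37 members (rows, by cluster and paralogue number) in 4 comparisons, with 95% confidence intervals from limma. Dark red marks an adjusted p under 0.05. The comparisons share arrays. Every called member lies left of 0, and the intervals of the HoxC genes are wider than those of most other members.

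Whether the difference between the stromas was the same in Kit− and Kit+ cells was asked of the difference itself, as the Kit−J minus Kit−D difference less the Kit+J minus Kit+D difference. Hoxa5 was called, the 1 member of 37 (2.70%), against 1.98% of all genes called and 1.36% called lower. Its difference of differences was −2.13 ± 0.33 (log2, SE; limma adjusted p = 0.00785), from −1.96 in Kit− cells and a Kit+ pair that lay together at the floor (4.89, 5.02 and 4.92 in Kit+J; 4.54, 4.72 and 5.04 in Kit+D). The call remained without any 1 array and was lost with housekeeping scaling (adjusted p = 0.0571). Hoxd8 (−1.80 ± 0.46), Hoxb4 (−1.36 ± 0.34) and Hoxb9 (−0.98 ± 0.25) missed the threshold (limma adjusted p = 0.0556, 0.0556 and 0.0548).

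Over all 6 groups at once, 9 of 37 members (24.3%) passed the F test, against 16% of all genes. They were the 8 of the comparison of the stromas in Kit− cells and Hoxd13, a posterior limb and genital gene that was under its floor in every group. Across the 9 pairwise comparisons 11 members were called at least once. They were the 11 called in Kit+D versus Kit−D, where 13.1% of all genes were called. The share of all genes called at least once was not counted, so this pooled count has no background beside it. By cluster they were 3 in HoxA, 4 in HoxB, 1 in HoxC and 3 in HoxD. By class they were 2 of 7 anterior, 6 of 14 central and 3 of 16 posterior genes. Most of the genes above the floor in no group are posterior, which limits a comparison of the classes. In each pairwise comparison every called member was lower in the group named first.

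Members with known roles in blood were also read where no comparison called them. Hoxa9, which maintains blood stem cells and drives leukaemia with Meis1, had 5.73, 5.69 and 6.06 in Kit− and 5.49, 5.69 and 5.32 in Kit+, with a range of 4.80 to 5.53 over the cultured arrays other than Kit−J, which had 5.32 and 5.73. Its Kit+ minus Kit− difference was −0.32, with a 95% confidence interval from −0.68 to 0.03. Hoxa7, a progenitor gene, had 5.13, 5.68 and 5.59 against 5.61, 5.37 and 5.36, a difference of −0.02 (−0.40 to 0.36). The groups of both genes overlapped.

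Hoxa10 had 5.06, 5.49 and 4.99 in Kit− and 4.50, 4.25 and 4.73 in Kit+. The groups did not overlap, and the difference of −0.69 (−1.11 to −0.26) missed the threshold after adjustment (limma adjusted p = 0.0858). Hoxa3 had 4.88, 5.10 and 4.95 against 4.41, 4.57 and 4.42, a difference of −0.51 (−0.87 to −0.15; limma adjusted p = 0.142). Both genes lay under the floor in Kit+, and in Kit−J versus Kit−D their differences were −0.25 for Hoxa10 and −0.08 for Hoxa3.

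Hoxb6 had 5.57, 5.57 and 5.52 in Kit− and 5.30, 5.55 and 5.00 in Kit+ (difference −0.27, interval −0.66 to 0.13). Hoxb7 had 5.62, 5.61 and 5.52 in Kit− and the same value of 5.43 on all 3 Kit+ arrays (difference −0.15, interval −0.52 to 0.22), and an identical value on several arrays limits what that probe set can resolve. A further probe set named both Hoxb8 and Hoxb7 and was not a member. Its mean ran from 4.61 in Kit+D to 5.24 in Kit−D.

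HoxC set 1 array apart. On Kit−D replicate 2, Hoxc10 had a log2 signal of 7.50, whereas Kit−D replicates 1 and 3 had 5.00 and 5.17 and the Kit− arrays 6.01, 5.89 and 5.31. Hoxc5 was at 6.32 against 4.45 and 4.39, Hoxc6 at 6.02 against 4.25 and 4.47, Hoxc9 at 6.73 against 5.29 and 5.60, and Hoxc4 at 5.45 against 4.16 and 4.30. These genes, from paralogue group 4 to group 10, were high together on that array. In all, 5 of the 9 HoxC genes lay more than 1 unit above the mean of the other 2 Kit−D arrays, against 0.722% of all genes on that array, with a median of 1.22 over HoxC. Some mesenchymal markers stood apart on the same array: Twist1 was at 7.73 against 6.38 and 6.05, Dcn at 6.41 against 4.81 and 4.43, Lum at 4.68 against 3.07 and 2.99 and Pdgfra at 7.52 against 5.76 and 6.35. Of the 13 stromal and mesenchymal markers 5 lay more than 1 unit above the other 2 Kit−D arrays there, with a median of 0.21, and 4 others (Mgp, Acta2, Tagln and Pdgfrb) did so on replicate 3. The part of such cells in the HoxC signal was not tested.

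Hoxc11, Hoxc12 and Hoxc13 did not take part: on that array they were at 4.11, 3.98 and 4.57, under the floor. Over the other 16 arrays, at most 1 HoxC gene of an array lay more than 1 unit above the other arrays of its group. On Kit+D replicate 2, of the same number, Hoxc10 was at 4.88 and Hoxc5 at 4.11. The spread it gives to Kit−D (Hoxc10, 5.89 ± 1.39, SD, n = 3) bears on the HoxC differences from Kit−D. Hoxc9 kept its call in Kit+D versus Kit−D without this array.

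**Figure D5:**
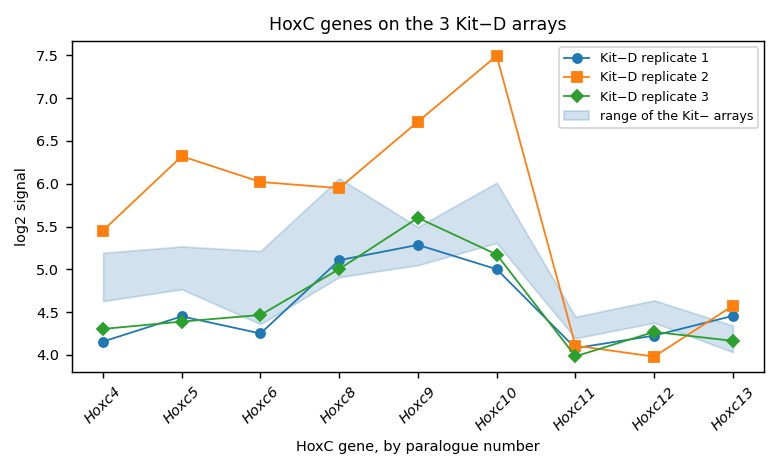
Log2 signal of the 9 HoxC genes, by paralogue number, on the 3 Kit−D arrays (lines with markers), with the range of the 3 Kit− arrays shaded. Replicate 2 lies above replicates 1 and 3 from Hoxc4 to Hoxc10 and meets them from Hoxc11 on.

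The partners and regulators of Hox genes were followed by fixed lists, with calls from the same limma fit. Of 8 measured TALE cofactors, 0 were called higher. The 1 called lower in Kit+ versus Kit− (2.67% of all genes) and the 1 in Kit−J versus Kit− (1.89%) was Meis2, which was also among the 2 in Kit−J versus Kit−D (6.07%) and the 2 in Kit+D versus Kit−D (6.62%). Its log2 signals were 8.18, 8.15 and 8.37 in Kit−, 5.66, 5.54 and 5.18 in Kit+, 5.09 and 6.48 in Kit−J, 7.26, 8.32 and 8.02 in Kit−D, 5.36, 6.14 and 6.16 in Kit+J and 5.03, 5.75 and 6.10 in Kit+D. It was high on the 6 Kit− and Kit−D arrays alone, as were Hoxa5, Hoxb4 and Hoxd8. The differences were −2.78 ± 0.37 in Kit+ versus Kit−, −2.08 ± 0.41 in Kit−J versus Kit−D and −2.24 ± 0.37 in Kit+D versus Kit−D (limma adjusted p = 0.000295, 0.0061 and 0.00114). Pbx3 was called in the comparison of the stromas (−1.16 ± 0.31, limma adjusted p = 0.0328) and Pknox2 in that of the Kit gates on OP9-Dll4 (−0.71 ± 0.20, limma adjusted p = 0.0314).

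Of 15 measured genes of retinoic acid supply, binding and response, 2 were lower in Kit+ versus Kit− (against 2.67% of all genes), 3 in Kit−J versus Kit−D (6.07%) and 5 in Kit+D versus Kit−D (6.62%), and 0 were higher. Rarb, a retinoic acid receptor that is itself induced by the ligand, had 6.29, 7.04 and 6.02 in Kit−, 4.99, 5.16 and 5.70 in Kit+, 5.73 and 5.15 in Kit−J, 6.55, 7.38 and 7.26 in Kit−D, 4.80, 5.25 and 5.24 in Kit+J and 4.88, 5.44 and 5.01 in Kit+D. Its difference was −1.16 ± 0.30 in Kit+ versus Kit−, −1.62 ± 0.33 in Kit−J versus Kit−D and −1.95 ± 0.30 in Kit+D versus Kit−D (limma adjusted p = 0.0445, 0.00772 and 0.000692). Crabp2, which carries retinoic acid to its receptor, was lower in the same 3 comparisons (−2.79 ± 0.56, −2.36 ± 0.62 and −2.40 ± 0.56, limma adjusted p = 0.00955, 0.0298 and 0.0113). Rdh10, an enzyme of retinoic acid synthesis, was lower in Kit−J (−1.50 ± 0.40) and in Kit+D (−1.38 ± 0.36), each versus Kit−D (limma adjusted p = 0.0311 and 0.0198). Rarg and the degrading enzyme Cyp26b1 were lower in Kit+D than in Kit−D by −0.71 ± 0.19 and −0.66 ± 0.18 (limma adjusted p = 0.0223 and 0.0261).

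Chromatin regulators were read in the same way, against 3.23% of all genes called in Kit+ versus Kit− and 13.1% in Kit+D versus Kit−D. Of 10 trithorax and MLL genes, Ash2l and Wdr5, core subunits of the complexes that methylate histone H3 at active genes, were higher in Kit+ versus Kit− (0.80 ± 0.18 and 0.99 ± 0.23, limma adjusted p = 0.0241 and 0.0285) and in Kit+D versus Kit−D (0.62 ± 0.18 and 0.82 ± 0.23, limma adjusted p = 0.0372 and 0.0304). Of 15 Polycomb genes, 0 were called in Kit+ versus Kit−, and in Kit+D versus Kit−D Phc1 and Suz12 were higher (1.23 ± 0.28 and 0.73 ± 0.17) and Phc2 and Cbx8 lower (−0.51 ± 0.14 and −0.57 ± 0.16; limma adjusted p from 0.0102 to 0.028). Cbx8 was also lower in Kit−J versus Kit−D (−0.85 ± 0.18, limma adjusted p = 0.00895).

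The caudal and even-skipped genes (5 measured), which switch on or border the clusters, had 0 members called in these 4 comparisons, and neither had the 7 noncoding genes of the clusters. Among the latter, the probe sets of the microRNA genes Mir10a and Mir10b stayed between 1.97 and 2.76 on all 17 arrays, near the lowest value of the array (1.24). In every group 1 of the 7 noncoding genes and 2 of the 5 caudal and even-skipped genes were above the floor. Differences among the others on both lists could not be seen.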

How the data were processed

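Per the labels, RMA gave the log2 values that the authors deposited for 17 Affymetrix mouse gene arrays (RMA version not given in the sources used here). These log2 values were used as deposited. The array medians ran from 5.22 to 5.38. Of 34760 probe sets, 21640 carried 1 symbol, 1321 several and 11799 none, and the brightest single-symbol probe set stood for a gene. Groups were compared as contrasts in 1 limma model (limma 3.58.1, R 4.3.3) of 6 group means, with Benjamini-Hochberg adjustment over 19937 genes, after a check on simulated data. The study does not name its test. Differences are followed by ± SE.

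Members, lists and tests were chosen with earlier results of these data known. Per-array values were given for members called in a pairwise comparison, and for Hoxa3, Hoxa5, Hoxa7, Hoxa9, Hoxa10 and Hoxb3 to Hoxb7. Most genes of other lists were named where called, up to 4 a list by adjusted p. Hoxc4 to Hoxc6, Hoxc8, Hoxc10 to Hoxc13, Hoxd13, Cyp26b1, Lhx1 and Ptprc were named after their values were seen. So were the stromal markers Lum, Mgp, Acta2, Tagln and Pdgfrb, which no comparison called. Marker lists were endothelial, stromal, germ cell, haematopoietic, myeloid, erythroid, urogenital and housekeeping genes.

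Groups counted as paired when 3 same-numbered pairs of arrays deviated together from their group means, each with a correlation above 0.1. Kit−D and Kit+D alone met this rule (correlations from 0.179 to 0.462, against at most 0.134 for other numbers). Kit−J has 2 arrays, whose deviations mirror each other, so a pairing with Kit−J could not be found this way. Kit−J replicate 1 correlated at 0.263 with Kit+J replicate 2, and whether OP9-Jag1 arrays share sorts is not known. The pairing comes from the data, not from the labels. Arrays of a group may share sources the labels do not give, so p-values measure the spread between these arrays.

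The fit was repeated with array weights, with a replicate block, with a trended variance and robust prior, after scaling to housekeeping genes, after a second quantile normalization, with probe sets of a gene averaged, without dim genes, with the compared groups alone, without 3 OP9-Dll4 arrays and without each array in turn. The replicate block in the OP9-Dll4 arrays alone was added after seeing the data. Promoter sequences are from RefSeq, GRCm38.p6. Figures were drawn with matplotlib 3.10.9 in Python 3.11.15.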

Additional observations from a re-analysis of the deposited data

Results flagged for a closer look

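Hoxa5 was the member whose difference between the stromas differed between Kit− and Kit+ cells by a test of that difference. The Kit−J minus Kit−D difference less the Kit+J minus Kit+D difference was −2.13 (log2, limma adjusted p = 0.00785). It was called in 8 of 9 alternatives and in 11 of 11 fits without 1 array, with values from −2.41 to −1.96. Both Kit+ groups lay at or under their floor, so a fall of Hoxa5 in Kit+ cells could not be seen. No group held over 3 arrays, so single arrays were not tested as outliers.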

How the results depend on the processing

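Of 406 refits of the 27 called differences, 321 kept the call, 85 lost it and 0 changed sign. Hoxa5 kept its call in every refit of Kit+ versus Kit−, Kit−J versus Kit−D and Kit+D versus Kit−D, as did Hoxd10 in the first, Hoxb4 and Hoxd8 in the second, and Hoxa2, Hoxb4 and Hoxb9 in the third. The cause of the changes below was not tested.

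With only the groups compared, Kit+D versus Kit−D called 7 members and the difference of differences 2. Without dim genes, which leaves 20 members and 12801 genes, the latter called 3. Housekeeping scaling called 0 in Kit−J versus Kit−, 4 in Kit−J versus Kit−D, 7 in Kit+D versus Kit−D and 0 for the difference of differences. It moved the median of all genes by over 0.1 in Kit−J versus Kit− (to 0.23), Kit−D versus Kit− (to 0.09), Kit+D versus Kit+ (to 0.13) and Kit+J versus Kit−J (to −0.15). Array weights called 8 in Kit+ versus Kit−, 0 in Kit−J versus Kit−, 2 (higher) in Kit−D versus Kit−, 4 in Kit−J versus Kit−D and 14 by the F test. With 3 OP9-Dll4 arrays left out (Kit−D replicate 3; Kit+D replicates 1 and 3), Kit−J versus Kit−D called 5 and Kit+D versus Kit−D 4.

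The replicate block over all arrays called 5 members in Kit−J versus Kit−D, 11 in Kit+D versus Kit−D, 4 in Kit+ versus Kit−, 2 in Kit−J versus Kit− and 8 by the F test. It moved no other count. Within the OP9-Dll4 arrays alone it called 9.

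Leaving out 1 array gave 7 to 13 members by the F test, 3 to 5 in Kit+ versus Kit−, 0 to 3 in Kit−J versus Kit−, 4 to 5 in Kit−J versus Kit−D, 7 to 11 in Kit+D versus Kit−D, 1 to 2 for the difference of differences, 0 to 1 in Kit+J versus Kit+D, and 0 in the other comparisons. The difference of differences reached 2 without Kit−D replicate 1 (Hoxa5 and Hoxb4), Kit+D replicate 1 (Hoxa5 and Hoxb4) or Kit+D replicate 3 (Hoxa5 and Hoxb9). A lone Kit−J array was taken to have the spread of the other groups. Signals near the floor limit what 2 or 3 arrays a group can show, and the array number limits the precision.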

Other observations

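Besides the lists already described, other marker lists differed among the cultured arrays. The mean of 9 haematopoietic markers, relative to Kit−, ran from −1.59 to 0.08 on the Kit−D arrays and from −1.70 to 1.22 on the Kit+D arrays, but from −0.02 to 0.22 on Kit+J. Among them Ptprc, the gene of CD45, was at 9.195, 8.46 and 8.12 in Kit− and at 8.35, 8.57 and 8.55 in Kit+. On OP9-Dll4 it was at 8.59, 4.46 and 4.16 in Kit−D and at 8.99, 5.54 and 4.64 in Kit+D. In the OP9-Jag1 groups it was at 8.12 and 8.86 in Kit−J and at 7.84, 7.38 and 8.605 in Kit+J. All these cells were sorted against CD45, and the Ptprc signal differed most between arrays of the same OP9-Dll4 group. Ptprc was not called in any comparison. The mean of 10 myeloid markers ran from −1.32 to 1.72 on Kit+D and from −1.12 to −0.82 on Kit+J. The mean of 6 urogenital markers stayed between −0.44 and 0.21 on all 17 arrays, although the dissected region holds the mesonephros and the gonad. Of these 6 genes 1 was called in Kit+ versus Kit−, where 2.67% of all genes were called lower. It was Osr1, a gene of early kidney mesoderm, lower in Kit+ (−1.23 ± 0.22, limma adjusted p = 0.00439). In Kit+D versus Kit−D (6.62% of all genes called lower) the 1 called was Wt1, lower in Kit+D (−0.76 ± 0.16, limma adjusted p = 0.00682). Lhx1 lay the other way without a call. It was at 4.95, 6.49 and 6.51 in Kit+D against 5.14, 4.82 and 4.575 in Kit−D. In Kit+ it was at 5.93, 5.14 and 5.26 against 4.71, 4.92 and 4.97 in Kit−.

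The embryonic globin genes Hba-x and Hbb-y were lower in Kit+ than in Kit− (−3.95 ± 0.54 and −4.03 ± 0.55, limma adjusted p = 0.000396 and 0.000439) and, on the 2 stromas, Kit+J lay under Kit+D (−4.55 ± 0.54 and −5.91 ± 0.55, limma adjusted p = 0.00145 and 0.000493). Red cells were removed by their surface protein Ter119 before these sorts.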
